A study of Mus musculus with 9 samples.

Results

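Acta2, Actg2, Tagln, Cnn1, Cnn2, Myl9, Tpm1, Tpm2, Vcl and Srf are the serum response factor (SRF) gene and 9 genes of the contractile cytoskeleton, most of them known SRF targets. Their mRNA levels were compared between mouse ES cells of 3 genotypes, wild-type (WT), Dgcr8 knockout (KO) and Dicer KO. The 10 genes were chosen by name among 23000 annotated transcripts. The choice was made with the low level of Acta2 in both mutants already known, so the comparisons of these genes with WT are given as a description, without a test. The comparison of the mutants with each other was not used in the choice and was tested, although earlier results of these data were known. Acta2, the smooth muscle α-actin, was 5.49-fold lower in Dgcr8 KO and 7.52-fold lower in Dicer KO than in WT. Tagln (transgelin), an actin-binding protein of smooth muscle, was 4.14-fold and 5.36-fold lower. Between the mutants, Acta2, Tagln, Cnn1 and Myl9 were higher in Dgcr8 KO, whereas Cnn2, Vcl and Srf were higher in Dicer KO.

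Total RNA was hybridised to 9 Affymetrix 1.0 mouse gene ST arrays, 3 for each genotype: WT ES cells (the v6.5 line), ES cells with a Dgcr8 knockout and ES cells with a Dicer knockout. The labels name no treatment, and the sources used here do not give the number of lines or clones behind each knockout, their strain or the presence of feeder cells. The methods name biological replicates, whereas the sample labels name triplicate plates, and the spread behind each p-value may therefore be only technical. All levels are normalized log2 intensities as deposited, so that a difference of 1 is a 2-fold difference, and levels of different genes are not compared with each other. Dgcr8, the RNA-binding partner of Drosha, was lowest on the 3 Dgcr8 KO arrays (8.74 to 8.96, against 9.76 to 9.82 on WT arrays). Dicer1 was lowest on the 3 Dicer KO arrays (8.32 to 8.43, against 10.18 to 10.23). Array medians lay between 6.49 and 6.56.

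SRF is a transcription factor that binds the CArG box, a short sequence that begins with CC, ends with GG and holds only A and T in between. It works with 2 families of partners. The myocardin family switches on cytoskeletal and muscle genes. Its members Mrtfa and Mrtfb are held in the cytoplasm by monomeric actin and released by actin polymerisation, while myocardin itself is nuclear and restricted to muscle. The ternary complex factors (Elk1, Elk3 and Elk4) are switched on by MAP kinases and act on immediate early genes. In smooth muscle this system drives contractile genes such as Acta2, Tagln and Cnn1, and many of the same genes are also expressed in non-muscle cells that build stress fibres.

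The CArG boxes near the starts of these genes are shown because SRF acts through this box. RefSeq promoters of GRCm38.p6, from 250 bases before to 50 bases after a listed transcript start, were searched on both strands. They were found for 8 of the 10 genes, all but Actg2 and Tagln. A CArG box lay in 4 of the 8 (Cnn2, Myl9, Vcl and Srf), and in 1.63% of all 32851 promoters. A CArG-like box, with 1 of the 6 central letters a C or G, lay in the promoters of Acta2 and Myl9, and in 8.5% of all promoters. Capitals mark the box in each sequence, which is written 5′ to 3′ on the strand of the gene.
Srf, both boxes, chr17:46556215-46556244, minus strand: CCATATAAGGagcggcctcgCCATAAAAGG
Cnn2, chr10:79988534-79988563, plus strand: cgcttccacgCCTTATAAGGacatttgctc
Vcl, chr14:20929161-20929190, plus strand: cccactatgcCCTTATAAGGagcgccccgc
Myl9, chr2:156775293-156775322, plus strand: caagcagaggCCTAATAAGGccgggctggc
Myl9, CArG-like, chr2:156775355-156775384, plus strand: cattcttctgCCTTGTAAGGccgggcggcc
Acta2, CArG-like, chr19:34255438-34255467, minus strand: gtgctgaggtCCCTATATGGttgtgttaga
Acta2, CArG-like, chr19:34255388-34255417, minus strand: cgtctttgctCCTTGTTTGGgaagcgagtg
Cnn2 and Vcl carry the same box, 56 bases and 227 bases before the listed start. The boxes of Srf begin 82 and 62 bases before the start and those of Acta2 begin 84 and 34 bases before it. A match is a description of the letters and not a measured binding site, and boxes outside the searched window are missed.

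**Figure D1:**
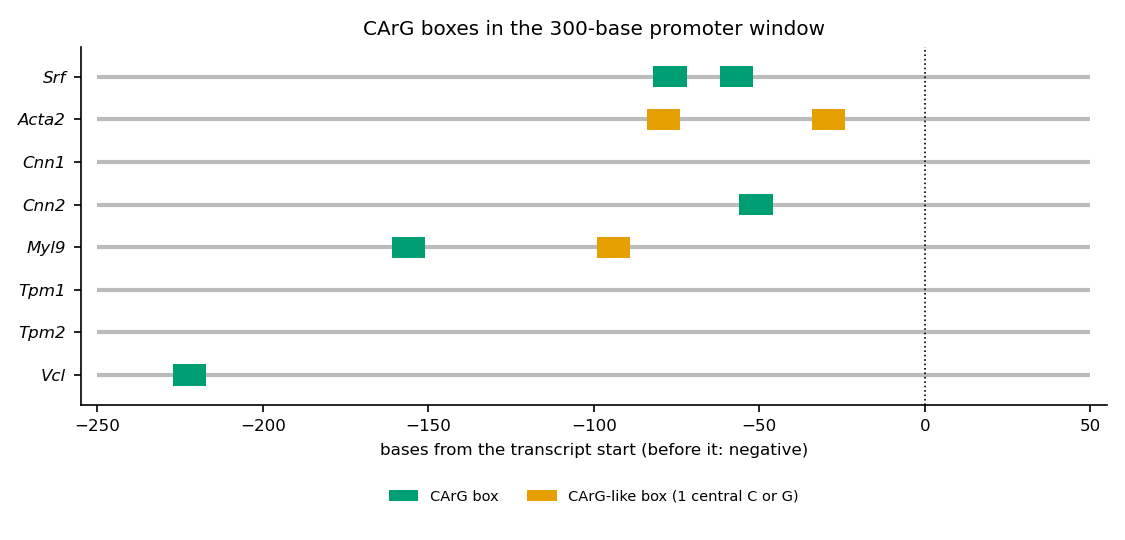
CArG boxes and CArG-like boxes in the 8 promoters found, drawn at their distance in bases from the listed transcript start (horizontal axis), 1 gene per row. Boxes lie in the promoters of Srf, Cnn2, Vcl and Myl9, CArG-like boxes in those of Acta2 and Myl9, and neither in those of Cnn1, Tpm1 and Tpm2.

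Acta2 (chr19:34240336-34255585) encodes the actin of smooth muscle thin filaments. Its log2 level was 9.52, 9.63 and 9.67 in the WT samples, 7.01, 7.18 and 7.25 in those of Dgcr8 KO, and 6.76, 6.47 and 6.85 in those of Dicer KO. Every WT array was above every mutant array, and every Dgcr8 KO array was above every Dicer KO array. The log2 ratio to WT was -2.46 (SE 0.102, n = 3 and 3) in Dgcr8 KO, the 9th lowest of 23000 transcripts. It was -2.91 (SE 0.102) in Dicer KO, the 8th lowest. Because these are cultures measured in bulk, fewer cells expressing a gene and less RNA per cell cannot be told apart.

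Actg2 (chr6:83512909-83536251), the γ-actin of enteric smooth muscle, did not share this pattern. Its log2 level was 5.77, 5.49 and 5.68 for WT, 5.65, 5.35 and 5.33 for Dgcr8 KO, and 5.38, 5.48 and 5.49 for Dicer KO. The arrays of each mutant overlapped those of WT, and the log2 ratios were -0.20 in both mutants (SE 0.0975). These levels lay close to 5.49, the mean level below which the dimmest 25% of transcripts lay, so a fall may not be visible. Actin genes are close to each other in coding sequence, and how far their probes share signal could not be measured from these values.

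Tagln (chr9:45929628-45936058) cross-links actin filaments and is an early marker of smooth muscle. Its log2 level was 9.02, 9.22 and 9.39 for WT, 7.13, 7.15 and 7.21 for Dgcr8 KO, and 6.71, 6.94 and 6.72 for Dicer KO. The 3 genotypes did not overlap and stood in the same order as for Acta2. The log2 ratio of Dgcr8 KO to WT was -2.05 (SE 0.0946) and that of Dicer KO was -2.42 (SE 0.0946), the 17th and 11th lowest of all transcripts.

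The calponins bind actin and restrain the myosin ATPase, and Cnn1 is the smooth muscle form whereas Cnn2 is found in many cell types. Cnn1 (chr9:22099221-22109221) was measured at 6.78, 6.66 and 6.95 for WT, 5.95, 5.96 and 5.88 for Dgcr8 KO, and 5.33, 5.31 and 5.74 for Dicer KO. Its log2 ratio of Dgcr8 KO to WT was -0.87 (SE 0.116) and that of Dicer KO was -1.33 (SE 0.116). The mean of Cnn1 in Dicer KO, 5.46, was below the 5.49 that bounds the dimmest 25% of transcripts, so a larger fall may not be visible there. Cnn1 thus stood in the order WT, Dgcr8 KO, Dicer KO, with no overlap.

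Cnn2 (chr10:79988600-79995400) stood in another order, with Dgcr8 KO lowest. Its log2 level was 10.10, 10.15 and 10.17 for WT, 9.09, 9.11 and 9.03 for Dgcr8 KO, and 9.58, 9.59 and 9.57 for Dicer KO. Relative to WT the log2 ratio was -1.06 (SE 0.0444) for Dgcr8 KO and -0.56 for Dicer KO.

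Myl9 (chr2:156775408-156781657) encodes the regulatory light chain of smooth muscle and non-muscle myosin, whose phosphorylation starts contraction. It was measured at 8.33, 8.43 and 8.53 for WT, 7.43, 7.54 and 7.41 for Dgcr8 KO, and 6.73, 6.71 and 6.74 for Dicer KO. The level in Dgcr8 KO lay between the other genotypes, with no overlap. The log2 ratio of Dgcr8 KO to WT was -0.97 (SE 0.0618) and that of Dicer KO was -1.71 (SE 0.0618).

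The tropomyosins lie along actin filaments and govern the access of myosin. Tpm1 (chr9:67022590-67049672) was measured at 10.22, 10.29 and 10.27 for WT, 9.96, 9.96 and 9.97 for Dgcr8 KO, and 9.90, 9.98 and 9.91 for Dicer KO. Both mutants were below WT, by log2 ratios of -0.29 and -0.33 (SE 0.0448), and overlapped each other. Tpm2 (chr4:43513726-43523583) was measured at 7.35, 7.79 and 7.71 for WT, 7.19, 7.10 and 7.19 for Dgcr8 KO, and 7.05, 7.07 and 6.90 for Dicer KO. Its log2 ratios to WT were -0.45 and -0.61 (SE 0.106), and WT replicate 1 lay closer to the mutants than to the other WT arrays.

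Vcl (chr14:20929383-21033676) encodes vinculin, which ties actin filaments to focal adhesions and cell junctions. Its log2 level was 9.61, 9.80 and 9.75 for WT, 9.61, 9.66 and 9.50 for Dgcr8 KO, and 9.80, 9.86 and 9.89 for Dicer KO. The Dgcr8 KO arrays overlapped WT (log2 ratio -0.13, SE 0.0648). The Dicer KO arrays were all above those of WT, but the lowest of them (9.801) was close to the highest WT array (9.795). The difference of the means was 0.13 on the log2 scale (SE 0.0648). Vcl was the only one of the 10 genes with a mean above WT in a mutant.

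Srf (chr17:46546838-46558267), the transcription factor itself, was measured at 9.06, 9.12 and 9.09 for WT, 8.67, 8.74 and 8.66 for Dgcr8 KO, and 8.95, 8.85 and 8.90 for Dicer KO. The 3 genotypes did not overlap, and Dgcr8 KO was lowest. The log2 ratio of Dgcr8 KO to WT was -0.40 (SE 0.0474) and that of Dicer KO was -0.19 (SE 0.0474), or 1.32-fold and 1.14-fold lower.

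**Figure D2:**
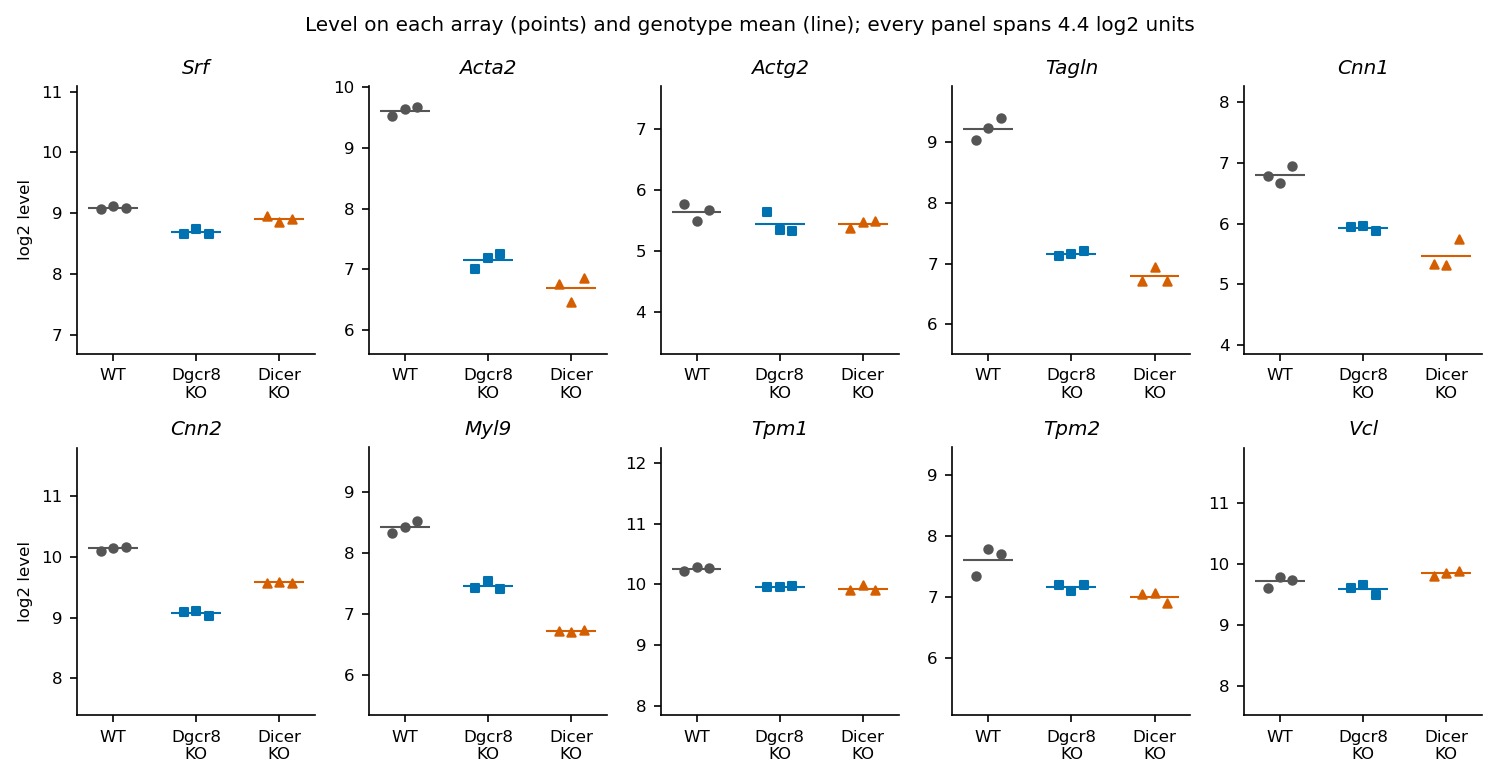
Normalized log2 level of each of the 10 genes on each of the 9 arrays, 1 panel per gene, with points for arrays and a bar for the mean of each genotype. Acta2, Tagln, Cnn1 and Myl9 step down from WT to Dgcr8 KO to Dicer KO, Cnn2 and Srf are lowest in Dgcr8 KO, and the genotypes overlap for Actg2.

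Over the 10 genes, 8 had all arrays of Dgcr8 KO below all arrays of WT, where 21.6% of all transcripts did, and 8 had all arrays of Dicer KO below WT, where 26.7% did. The exceptions were Vcl and the dim Actg2 in both. These counts use the contrasts behind the choice of the genes, and nothing is read from them. Both comparisons also share the 3 WT arrays. The 10 genes had a median log2 ratio of -0.66 for Dgcr8 KO and of -0.59 for Dicer KO, against medians of -0.010 and -0.057 over all transcripts. WT replicate 1 was the lowest WT array for 8 of the 10 genes, with a mean deviation of -0.074 from the WT means. Without it, the log2 ratios of Acta2 were -2.50 and -2.95 for Dgcr8 KO and Dicer KO, those of Tagln were -2.14 and -2.52, and those of Tpm2, the gene it moved most, were -0.59 and -0.74.

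The mutants were then compared with each other, a contrast not used to choose the genes, although earlier results of these data were known. A difference was called at an adjusted p under 0.05 by limma. In Dgcr8 KO relative to Dicer KO, 4 of the 10 genes were higher, where 11.2% of all transcripts were called higher, and 3 were lower, where 13.4% were called lower. Myl9 was 1.67-fold higher (log2 ratio 0.74, SE 0.0618, limma adjusted p = 3.48e-05). Acta2 was 1.37-fold higher (0.45, SE 0.102, adjusted p = 0.0103). Cnn1 was 1.38-fold higher (0.46, SE 0.116, adjusted p = 0.0168), and Tagln was 1.30-fold higher (0.38, SE 0.0946, adjusted p = 0.0178). For each of these 4 genes, all 3 Dgcr8 KO arrays were above all 3 Dicer KO arrays. Counting arrays alone, 5 of the 10 genes were higher without overlap (these and Tpm2) and 3 were lower, where 21% of all transcripts were higher and 21% lower in this way.

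Of the 3 genes that were lower in Dgcr8 KO in this contrast, Cnn2 was 1.41-fold lower (log2 ratio -0.50, SE 0.0444, limma adjusted p = 4.86e-05). Vcl differed by -0.26 (SE 0.0648, adjusted p = 0.0164) and Srf by -0.21 (SE 0.0474, adjusted p = 0.01), again without overlap of arrays. For Actg2, Tpm1 and Tpm2 no difference was called. The 95% intervals of their log2 ratios ran from -0.23 to 0.21 for Actg2, from -0.067 to 0.14 for Tpm1 and from -0.082 to 0.40 for Tpm2, so the data leave room for differences of either sign within these bounds. The calls for Tagln, Cnn1 and Vcl did not hold without certain single arrays: the adjusted p rose to 0.0683 for Tagln without Dicer KO replicate 1, to 0.0675 for Cnn1 without Dicer KO replicate 2 and to 0.0613 for Vcl without Dgcr8 KO replicate 3. Those of Acta2, Myl9, Cnn2 and Srf held without any 1 array.

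**Figure D3:**
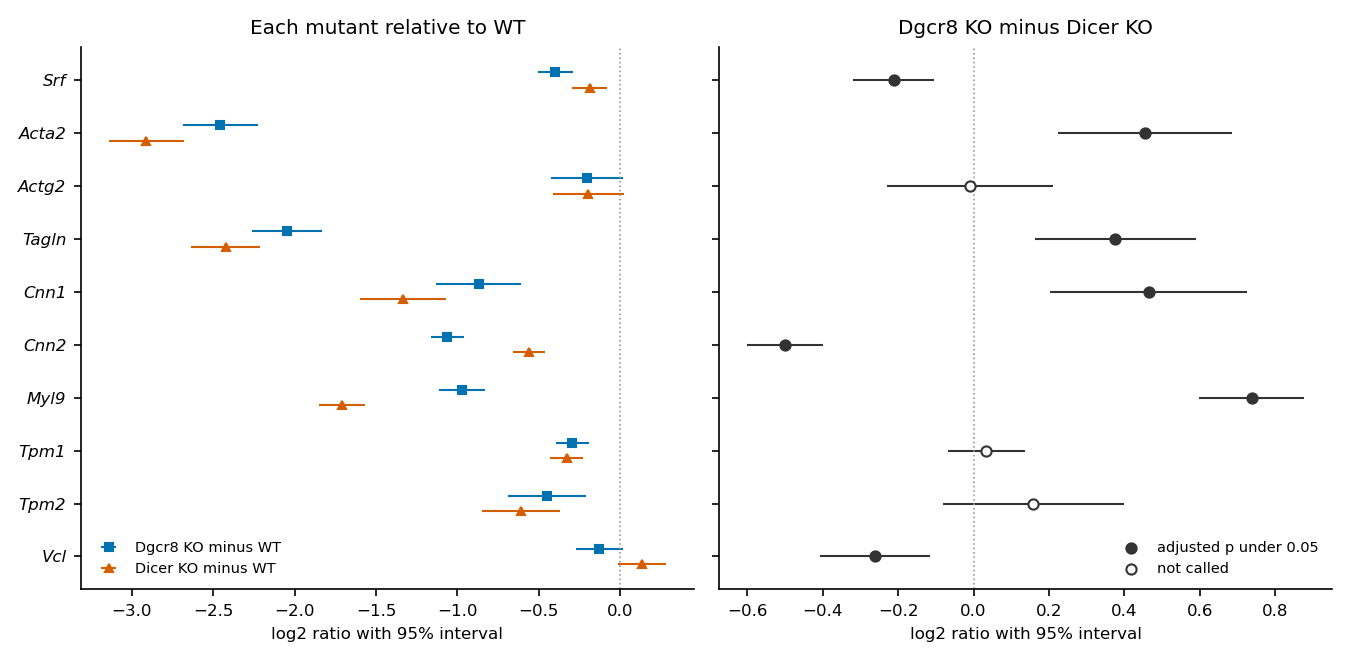
Log2 ratio of each of the 10 genes in the 3 contrasts, with 95% intervals from limma as bars and a line at 0. The ratios to WT of Acta2 and Tagln lie below -2, and in the contrast of the mutants Myl9, Cnn1, Acta2 and Tagln lie above 0 whereas Cnn2, Vcl and Srf lie below it.

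Among the closest relatives of these genes, more rose than fell. The related actins, transgelins, calponins, light chains and tropomyosins were measured for 11 of 12 genes, all but Actg1, whose clusters are shared with Actb. In Dgcr8 KO relative to WT, 5 of the 11 rose and 1 fell, where 15.7% of all transcripts were called higher and 17.3% lower. In Dicer KO 9 rose and 1 fell, where 17.8% were called higher and 19.1% lower. SAM (significance analysis of microarrays, the test the study used) called 5 of the 11 in Dicer KO, 4 higher and 1 lower. The gene that fell in both was Acta1, the actin of skeletal muscle, at 8.37, 8.30 and 8.25 for WT, 7.24, 7.36 and 7.32 for Dgcr8 KO, and 7.61, 7.66 and 7.65 for Dicer KO (limma adjusted p = 7.6e-07 and 6.5e-06). Between the mutants, Acta1 was lower in Dgcr8 KO (log2 ratio -0.33, adjusted p = 0.00132), the order of Cnn2 and Srf and not that of Acta2.

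Tagln2, the non-muscle transgelin, rose by 0.49 in Dgcr8 KO and by 1.47 in Dicer KO on the log2 scale (limma adjusted p = 5.99e-05 and 5.19e-08), and Tagln3, the neuronal form, rose by 0.89 and 1.51. Both were above WT in the mutants, where Tagln was below it. Tpm4, a cytoskeletal tropomyosin, rose by 0.18 and 0.91, and Myl12b, a non-muscle regulatory light chain, rose by 0.38 and 0.41. Cnn3, the acidic calponin, rose by 0.215 in Dgcr8 KO and by 0.14 in Dicer KO. Actb, Myl6, Myl12a and Tpm3 rose by 0.15 to 0.21 in Dicer KO and were not called in Dgcr8 KO, with log2 ratios of 0.087, 0.11, -0.11 and 0.096. The value of Tpm3 is that of its brightest cluster of 4, and the other 3 were not called in Dicer KO, with ratios of -0.043, 0.14 and 0.12. Actc1, the cardiac actin, was not called, with ratios of -0.13 and -0.27. Between the mutants, 5 of the 11 were lower in Dgcr8 KO (Tagln2, Tpm4, Tagln3, Acta1 and Myl12a, by -0.98 to -0.26), where 13.4% of all transcripts were called lower. The other 6 were not called on the cluster used. Other clusters of Myl6 were called lower at -0.16, -0.17 and -0.19, and not called at -0.12 and -0.11. Of the other Tpm3 clusters, that at -0.19 was called lower, and those at 0.11 and -0.15 were not called. Of the 13 promoters of 11 of these genes, those of Acta1, Actc1, Actg1 and Myl6 held a CArG box, where 1.63% of all promoters did.

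Among the 8 SRF cofactors and regulators, 3 rose in both mutants, while Fhl2 fell in Dgcr8 KO. The 4 called in Dgcr8 KO are 50% of the list and the 3 in Dicer KO are 37.5%, where 33% and 36.8% of all transcripts were called, and SAM called 2 and 3. Elk4, a ternary complex factor, was at 6.98, 7.09 and 7.30 for WT, 8.59, 8.65 and 8.61 for Dgcr8 KO, and 8.94, 8.89 and 8.96 for Dicer KO. Its log2 ratios to WT were 1.49 (SE 0.0753, limma adjusted p = 7.35e-07) and 1.80 (adjusted p = 1.39e-07). Elk3 rose by 0.27 and 0.94 (adjusted p = 0.000992 and 2.94e-07), and Mrtfb, an actin-sensing coactivator, rose by 0.58 and 0.38 (adjusted p = 6.24e-05 and 0.00078). The partner genes that rose thus belong to both families.

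Mrtfa, the other widely expressed actin-sensing coactivator, was not called, with ratios of 0.078 and 0.026 (SE 0.0496), nor were Elk1 and Scai, a repressor of the MRTF proteins. Myocd, the muscle-restricted myocardin, lay among the dimmest 25% of transcripts and was not called. Fhl2, a LIM protein that binds SRF, fell by -0.30 in Dgcr8 KO (adjusted p = 0.0248) and had a ratio of -0.21 in Dicer KO (adjusted p = 0.089). Relative to Dicer KO, Dgcr8 KO was higher in Mrtfb (0.20, adjusted p = 0.0425, with 0.26 and -0.058 for its 2 other clusters, the latter not called) and lower in Elk3 (-0.66) and Elk4 (-0.31, adjusted p = 0.014).

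The 25 measured genes of a longer list of SRF cytoskeletal targets were called in both directions. Actb, Tpm3, Tpm4 and Tagln2 are also among the relatives above, and Fhl2 is among the cofactors. Calls of these shared genes are counted in both lists. In Dicer KO, Actb, Tpm3, Tpm4 and Tagln2 are among the rises of both. In Dgcr8 KO, 7 rose and 10 fell, where 15.7% of all transcripts were called higher and 17.3% lower, and the median log2 ratio was -0.068. That balance turned after cyclic loess normalization (10 higher and 9 lower) and was 5 and 5 by SAM. In Dicer KO, 13 rose and 4 fell, where 17.8% were called higher and 19.1% lower, with a median of 0.14. Lima1, which bundles actin, rose by 1.09 and 0.68 (limma adjusted p = 1.11e-06 and 1.57e-05), and Itga5, the fibronectin receptor subunit, rose by 0.95 and 0.89. The 4 genes that fell in Dicer KO were Ccn1, Zyx, Ccn2 and Ankrd1 (log2 ratios -0.68, -0.44, -0.39 and -0.33), and the same 4 fell in Dgcr8 KO (-0.39, -0.38, -0.18 and -0.46). Ccn1 and Ccn2 encode secreted matrix proteins, zyxin sits in focal adhesions, and these 4 genes, like Flna, were named after their values were seen.

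Fhl1, a LIM protein of muscle, fell in Dgcr8 KO (log2 ratio -0.49, adjusted p = 0.000252) and rose in Dicer KO (1.02, adjusted p = 1.65e-06), and the mutants differed by -1.51 (adjusted p = 5.83e-07). Flna, which cross-links actin, also fell in Dgcr8 KO (-0.26, limma adjusted p = 0.00154) and rose in Dicer KO (0.15, adjusted p = 0.0257). The mutants differed by -0.40 (adjusted p = 0.000174). Its level was 11.31 on each of the 3 WT arrays, so the spread behind these p-values may be understated. Csrp1, a LIM protein of the actin cytoskeleton, and Wdr1, which helps disassemble filaments, rose more in Dicer KO (1.10 and 0.82) than in Dgcr8 KO (0.20 and 0.31), and the difference was called for both. Of these genes, Fhl1, Fhl2, Lima1, Filip1l and Actg1 were the 5 of 22 found whose promoters held a CArG box, and Fhl1 and Fhl2 fell in Dgcr8 KO while Lima1 rose. These 22 genes had 29 promoters, and a box lay in 1.63% of all promoters. A box was found for 1 of 7 cofactors (Fhl2) and for 1 of 7 immediate early genes (Egr2).

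The immediate early genes, which SRF and the ternary complex factors switch on together, numbered 11. Of these, 1 rose and 2 fell in Dgcr8 KO and 2 rose in Dicer KO, or 27.3% and 18.2% of the list, where 33% and 36.8% of all transcripts were called. Egr1 rose by 0.33 in Dgcr8 KO (limma adjusted p = 0.00118), and Ier2 and Junb fell, with ratios of -0.29 (adjusted p = 0.0117) and -0.25 (adjusted p = 0.0499). Nr4a1 and Arc rose in Dicer KO, each by 0.41, and both differed between the mutants (Dgcr8 KO minus Dicer KO, -0.53 and -0.45). Fos, Fosb, Egr2, Egr3, Egr4 and Mcl1 were not called in either comparison with WT.

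Markers of other cell types were measured on the same arrays. Beside the counts of these lists, 15.7% of all transcripts were called higher and 17.3% lower in Dgcr8 KO. In Dicer KO 17.8% were called higher and 19.1% lower. Of 7 smooth muscle markers outside the 10 genes, Smtn (smoothelin) and Des (desmin) fell in both mutants by limma's test (log2 ratios -0.38 and -0.40 for Smtn, -0.68 and -0.55 for Des), and the other 5 were not called. In Dgcr8 KO, 2 of the 7 were at an unadjusted p under 0.05 by limma, and SAM called 2. In Dicer KO these counts were 4 and 3. There 6 of the 7 ratios were below 0, with a median of -0.24, and Lmod1 had a limma adjusted p of 0.051. Myh11, the smooth muscle myosin heavy chain that defines the cell type, was at 6.51, 6.12 and 6.12 for WT, 6.18, 6.05 and 6.12 for Dgcr8 KO, and 5.97, 6.10 and 6.14 for Dicer KO, and was not called. The summed linear intensity of the 7 markers was 801 to 828 on WT arrays, 669 to 713 on Dgcr8 KO arrays and 667 to 686 on Dicer KO arrays. The lower sums in the mutants largely follow Smtn and Des. In WT, Dgcr8 KO and Dicer KO the mean log2 levels were 8.44, 8.06 and 8.04 for Smtn and 6.88, 6.20 and 6.33 for Des. The part of smooth muscle cells in the levels of the 10 genes was not tested. Of 7 cardiac markers none was called in Dgcr8 KO (0 at an unadjusted p under 0.05 by limma and 0 by SAM). In Dicer KO only Myl7 was called, and it rose (0.26). The other 6 had ratios below 0 there, and the median of the 7 was -0.25. Of the 7, 3 were at an unadjusted p under 0.05 by limma in Dicer KO, and SAM called 2. Of 6 skeletal muscle markers, Acta1 fell in both mutants, as given above, and Mylpf, a fast myosin light chain, rose in Dicer KO (0.81).

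Of 12 measured fibroblast and feeder cell markers, none was called by limma in Dgcr8 KO relative to WT, with 0 at an unadjusted p under 0.05 and 0 by SAM. In Dicer KO only Dcn was called among these 12 (log2 ratio -0.26, limma adjusted p = 0.0376), which lies among the dimmest 25% of transcripts, with 4 at an unadjusted p under 0.05 and 0 called by SAM. Their summed intensity was 817 to 961 in WT, 765 to 885 in Dgcr8 KO and 778 to 839 in Dicer KO, so the mutants' ranges overlapped that of WT. The summed intensity of 10 ES cell markers was 34107 to 35209 in WT, 39784 to 40673 in Dgcr8 KO and 43235 to 43617 in Dicer KO, and 6 of the 10 rose in Dgcr8 KO and 5 in Dicer KO, where 15.7% and 17.8% of all transcripts were called higher. Utf1 fell in both (log2 ratios -0.45 and -0.51).

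The summed intensity of 6 primitive endoderm markers was 1878 to 1953 on WT arrays, 3275 to 3317 on Dgcr8 KO arrays and 4795 to 4968 on Dicer KO arrays. This sum largely follows Sparc, a secreted matrix protein, the brightest of the 6. Its mean log2 levels were 10.41, 11.43 and 12.10 in WT, Dgcr8 KO and Dicer KO. The next brightest, Col4a1, was at 7.69, 7.78 and 7.84. In each mutant 2 of the 6 rose and 1 fell. Sparc rose by 1.02 and 1.69 on the log2 scale, whereas Dab2, an endocytic adaptor, had ratios of -1.13 and -1.15 on its brighter cluster and was not called on the other. Of 5 measured mesoderm markers, 1 rose in Dgcr8 KO, and 1 rose and 2 fell in Dicer KO. Kdr, a VEGF receptor, rose by 1.14 and 2.10, from a mean log2 level of 5.54 in WT to 6.68 and 7.64. The summed intensity of the 5 was 414 to 461 in WT, 427 to 482 for Dgcr8 KO and 532 to 570 for Dicer KO. Its higher value in Dicer KO largely follows Kdr. The part of these cell types in the levels of the 10 genes was not tested.

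The genes whose pattern over the 9 arrays was closest to that of Acta2 were found by the root mean square difference of the levels after each gene was centred on its own mean. The closest were Dppa3, a factor of germ cells and the early embryo (difference 0.244 on the log2 scale, Pearson's r = 0.982 over 9 arrays), Lin28a, which blocks let-7 maturation (0.254, r = 0.998), and the imprinted gene Phlda2 (0.266, r = 0.978). Tagln followed at 0.271 (r = 0.990), and then came the amino acid transporter Slc38a4 (0.305), the semaphorin Sema6a (0.310), Fndc3c1 (0.318), the transcription factor Myc (0.319) and the MAP kinase phosphatase Dusp4 (0.371). Among the 10 genes the next most like Acta2 were Myl9 (0.653) and Cnn1 (0.757), and Vcl was the least like it (1.31, r = -0.133). These correlations are descriptions, since the 9 arrays fall into 3 genotypes and the WT arrays are shared.

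**Figure D4:**
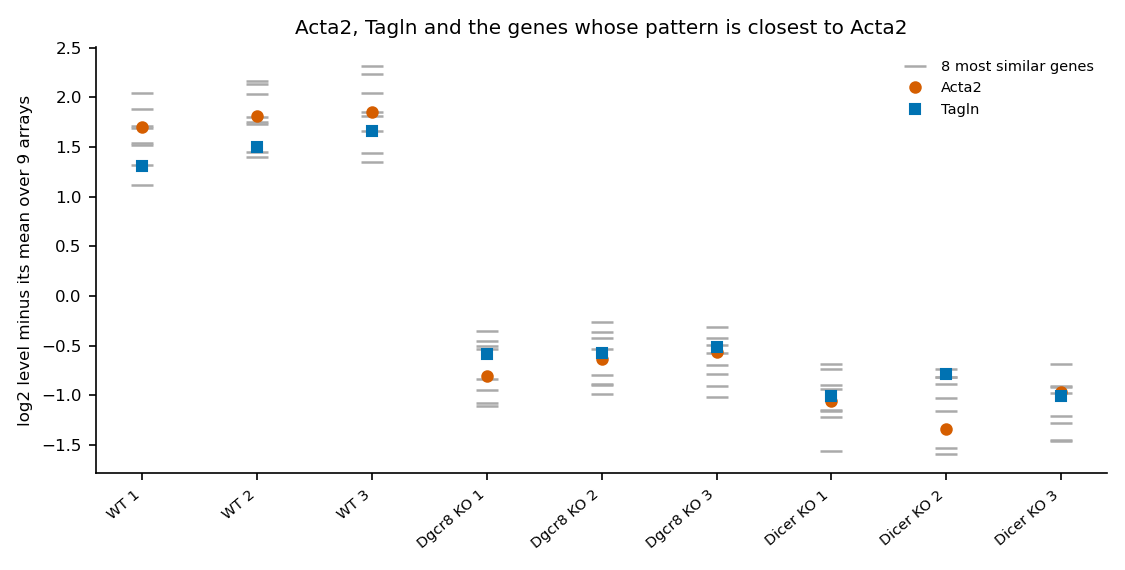
Log2 level minus the gene's mean over the 9 arrays, for Acta2 (circles), Tagln (squares) and the 8 genes most like Acta2 (grey dashes), by array. In WT all lie above 1 and in both mutants all lie below 0, with Acta2 between 1.70 and 1.85 above its mean in WT.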

How the data were processed

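ES cell cultures of WT, Dgcr8 KO and Dicer KO, 3 of each, were measured on 1-colour Affymetrix arrays, and groups came from the sample labels. The deposited log2 values had been normalized by the authors. Their methods name RMA and the submitters' processing notes name GCRMA, with no version, so the background correction behind dim values is unsettled. Values were used as deposited. Only clusters with a symbol were counted, less those of miRNA genes alone (326) and mitochondrial (6) and Y-linked (78) clusters. Each gene is 1 cluster with 1 symbol, the brightest where several exist. Promoters and positions are from RefSeq.

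Genotype means were fitted over the 9 arrays together with limma 3.58.1 in R 4.3.3 (lmFit, eBayes), with Benjamini-Hochberg adjustment over 23000 transcripts. Named were the 10 genes, all relatives and cofactors, the 4 called genes with the smallest adjusted p per other list and contrast, and the 8 genes most like Acta2. A further list of genes is not reported here. The genes and lists were chosen with earlier results of these data known. In all, 21 alternatives were run, among them SAM, written anew from its description. The scripts were tested on simulated data. The precision is limited by the number of arrays, 3 per genotype.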

Additional observations from a re-analysis of the deposited data

Results flagged for a closer look

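The mutants differed from each other in these results by limma's direct contrast, given as Dgcr8 KO minus Dicer KO on the log2 scale. Of the 10 genes, Myl9 (0.74), Cnn1 (0.46), Acta2 (0.45) and Tagln (0.38) were higher in Dgcr8 KO, and Cnn2 (-0.50), Vcl (-0.26) and Srf (-0.21) were lower. Fhl1 (-1.51) and Flna (-0.40) were picked out because each fell in Dgcr8 KO and rose in Dicer KO relative to WT. Flna had the same level on all 3 WT arrays, so its spread may be understated. The number of knockout lines is not given in the sources, so a difference between genotypes and one between lines cannot be told apart.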

How the results depend on the processing

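For 39 genes (the 10, their relatives and cofactors, and the genes of the other lists with the smallest adjusted p), no called value changed direction under the 21 alternatives. The other genes named were not followed through them. No calls against WT are counted here for the 10 genes, since those contrasts stand behind their choice. Between the mutants, 7 of the 10 genes were called. Of 50 genes of other lists, each counted once, 27 were called in Dgcr8 KO against WT, 28 in Dicer KO against WT and 22 between the mutants. Over all transcripts, 33%, 36.8% and 24.6% were called in these 3 contrasts. Requiring a change of at least 1.5-fold left 1 of the 10 genes between the mutants. It left 5, 12 and 6 of the others, in the same order of contrasts. Of all transcripts, 1268, 1650 and 509 were then called higher and 815, 849 and 629 lower. An adjusted p under 0.01 left 3 of the 10 between the mutants, where 1416 of all transcripts were called higher and 1977 lower. SAM called 16 of the others in Dgcr8 KO against WT, where it called 2611 of all transcripts higher and 2353 lower. Leaving out 1 array gave 5 to 7 of the 10 genes between the mutants. Of the others it gave 24 to 26, 23 to 27 and 19 to 23. Over all transcripts it gave 3212 to 3628, 3590 to 4080 and 1884 to 3001 higher calls. The lower calls were 3344 to 4265, 3569 to 4371 and 2302 to 3565. The calls between the mutants were lost for Tagln without Dgcr8 KO replicate 3 (adjusted p = 0.0625), Dicer KO replicate 1 (0.0683) or Dicer KO replicate 3 (0.0646), for Cnn1 without Dgcr8 KO replicate 1 (0.055), Dicer KO replicate 1 (0.0666) or Dicer KO replicate 2 (0.0675), and for Vcl without Dgcr8 KO replicate 3 (0.0613), Dicer KO replicate 2 (0.0541) or Dicer KO replicate 3 (0.06). Without WT replicate 1, Vcl had a log2 ratio of -0.18 for Dgcr8 KO and of 0.081 for Dicer KO. Among the relatives and cofactors, calls near the threshold were lost in several of the 21 alternatives: Myl12a in Dicer KO in 15, Cnn3 in Dicer KO in 13, Mrtfb between the mutants in 11, Fhl2 in Dgcr8 KO in 9 and Tpm4 in Dgcr8 KO in 9, and the call of Junb in Dgcr8 KO was lost in 17. After median centring of the arrays, the share of higher calls over all transcripts between the mutants was 32.2%, against 45.5% as deposited. After cyclic loess normalization, 18 of the 50 genes were called higher and 11 lower in Dgcr8 KO against WT, in place of 14 and 13. Over all transcripts, 4351 were then called higher and 3663 lower, in place of 3615 and 3976. With the replicate number as a block, 7 of the 10 genes were called between the mutants, and 26, 26 and 23 of the others. Of all transcripts, 3613, 4085 and 2621 were then called higher and 3926, 4458 and 3038 lower. Same-numbered arrays of different genotypes deviated together with r from -0.2 to 0.344, and differently numbered arrays with r from -0.465 to 0.317. The deviations are centred within each genotype, so these values do not settle whether the numbers pair the cultures. The cause of these shifts was not tested.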
